A study of Mus musculus with 12 samples.

Results

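Ctnnb1 encodes β-catenin, and 9 further genes described here are reported as its direct transcriptional targets: Axin2, Nkd1, Lgr5, Notum, Rnf43, Znrf3, Tcf7, Lef1 and Glul. The genes were chosen as reported members of the pathway, with earlier results of these data known. All 10 were found among the 45706 genes measured, and all 10 were among the 18909 tested, which had a mean of at least 0.1 TPM, the share of transcripts corrected for length, over the 12 libraries. β-catenin links cadherins to the actin cytoskeleton at cell junctions and, when a Wnt signal blocks its phosphorylation by the destruction complex of Axin, APC and GSK3, it accumulates and acts in the nucleus as the coactivator of TCF/LEF transcription factors. Many of the genes it activates restrain the same pathway, so their transcripts are widely used as a measure of its output. In the liver β-catenin sets the gene expression of hepatocytes around the central vein, and it is the most often mutated oncogene of hepatoblastoma (HB).

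The cells were BN1, a line from a mouse HB that was driven in an FVB/N liver by Sleeping Beauty vectors for an in-frame deletion mutant of β-catenin and a missense mutant of NRF2, with Cdkn2a mutated by Crispr. All cells also carried EGFP under the Tie2 (Tek) promoter, from stable clones that had been pooled. The 12 RNA libraries form 4 groups of 3. Unsorted cells were grown in normoxia (UN, 21% O2) or spent 2 days in hypoxia (UH, 1% O2). The SN group came from hypoxic cells, sorted by FACS for the brightest EGFP, that then grew for about 10 days in normoxia. A second stay of 2 days in 1% O2 gave the SH group. The mutant β-catenin and the targeting of Cdkn2a were thus shared by every group. The libraries of a group are described as independent replicas, but the sources used here do not say that these were separate cultures, so the p-values measure the spread between these libraries. TPM values sum to the same total in every library and allow for the length of each transcript, so levels of different genes can be set side by side, whereas the sequencing depth is unknown. Since RNA came from whole cultures, fewer cells that express a gene and less RNA per cell cannot be told apart.

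UN replicate 1 stood apart from the other UN libraries. Of the tested genes, 1161 differed by more than 2-fold between UN replicates 1 and 2 and 1076 between replicates 1 and 3, compared with 352 between replicates 2 and 3. Between UH replicates 1 and 3 the number was 842, and all other pairs within a group were closer. Results of the 10 genes in UH vs UN and SN vs UN are therefore given with and without UN replicate 1. Of 28 values of further genes that were eligible to be named and rest on UN cells, 27 were still called without it. Markers of other cell types also moved with the groups. The summed TPM of 9 fibroblast markers was 4505, 1447 and 1313 in UN replicates 1 to 3, between 4800 and 7115 in UH, between 169 and 192 in SN and between 47.3 and 72.7 in SH libraries, with Col1a1 the most abundant and Lum under 0.1 TPM on average over all 12 libraries. By group, Col3a1 was the highest in UN cells on average (785 TPM), with 1960 TPM in UN replicate 1, and Dcn the highest in SN and SH cells (119 and 25.4 TPM). In the summed TPM UN replicate 1 lay near the UH libraries, and the sorted cells lay far below all unsorted ones. Collagen genes carried the sum in unsorted but not in sorted cells, and single markers differed from it, such as Dcn, which was at 349 TPM in UN replicate 1 and at 119 TPM in SN but 53.8 TPM in UH cells on average. The summed TPM of 9 hepatocyte or hepatoblast markers was 192 ± 62.9 in UN, 127 ± 15.5 in UH, 150 ± 25.0 in SN and 157 ± 43.5 in SH cells (SD, n = 3 in each), with Krt18 the most abundant and Ttr under 0.1 TPM on average over all 12 libraries. Krt18 made the largest part of the sum, and single markers differed from it. Of 8 tested, 5 were called lower and 1 higher in SN vs UN, against 7.57% and 3.20% of all tested genes, and 3 lower and 0 higher in UH vs UN, against 11.8% and 5.46% (limma). For 9 endothelial markers the sum was 0.776 in UN, 2.22 in UH, 4.18 in SN and 9.11 TPM in SH cells on average. Averaged over all 12 libraries, Plvap was the most abundant, and Cdh5, Emcn, Cldn5 and Erg were under 0.1 TPM. Single groups differed from this. In SN cells Tek, whose promoter drove EGFP, was above Plvap, at 2.49 and 1.34 TPM. Vwf (0.273 TPM) and Kdr (0.164 TPM) were above Plvap (0.156 TPM) in UN cells, and Erg averaged 0.130 TPM in UH cells. For 7 leukocyte markers the sum was 7.46, 22.1, 12.2 and 60.8 TPM in UN, UH, SN and SH cells, with Cd68 the most abundant and Ptprc, Adgre1 and Cd3e under 0.1 TPM on average over all 12 libraries. Cd68 alone made up 53.9 TPM of the sum in SH cells, and the median log2 fold change of the 4 markers tested was −0.03 in SH vs UH. The part of any of these cell types in the results on the β-catenin genes was not tested.

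Genes were called higher or lower when limma gave an adjusted p under 0.05 over all tested genes and the fold difference was above 2 on the log2(TPM + 1) scale, which understates the change of genes with few transcripts. In UH vs UN cells 4 of the 10 genes were called lower, where 11.8% of all tested genes were called lower, and 0 were called higher, where the share was 5.46%. At an unadjusted p under 0.05 in limma the counts were 8 lower and 0 higher, where the shares of all tested genes were 37.7% and 15.0%. In SH vs SN cells 1 gene was called lower, against 4.998% of all genes, and 0 were called higher, against 7.47% (5 lower and 0 higher at an unadjusted p under 0.05, limma, against 22.9% and 25.5%). The comparison of sorted with unsorted cells in normoxia, SN vs UN, gave 2 genes called higher, against 3.20% of all genes, and 1 called lower, against 7.57% (5 higher and 2 lower at an unadjusted p under 0.05, limma, against 16.7% and 25.9%). In hypoxia, SH vs UH, the counts were 2 higher, against 7.65%, and 1 lower, against 5.35% (7 higher and 1 lower at an unadjusted p under 0.05, limma, against 33.9% and 15.9%). Leaving out UN replicate 1 gave 0 higher and 4 lower for UH vs UN, while SN vs UN then had 2 of each. All shares of tested genes given here and below are those of the fit with all 12 libraries. Counts without UN replicate 1 therefore have no share of their own to be set against. With only 10 genes, these counts describe these genes and no wider set.

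Before any threshold, fitted log2 fold changes between UH and UN cells were below 0 for all 10 genes, as they were for 64.5% of all tested genes. The median was −0.76 over the 10 genes and −0.19 over all genes. Under median-of-ratios scaling, which sets the median of all genes in UH vs UN to 0.00, all 10 genes were still below 0, with a median of −0.50, though Axin2 (−0.02) and Glul (−0.07) were then close to 0. The same scaling turned the split of all called genes in UH vs UN from 1032 higher and 2222 lower to 1566 higher and 1221 lower. Fitted values for SH vs SN were below 0 for 9 of the 10 genes and for 46.4% of all genes, with medians of −0.45 and 0.03. The medians for the 10 genes and for all genes were 0.01 and −0.06 for SN vs UN, whereas SH vs UH had 0.69 and 0.17. In the last comparison scaling reduced the median of all genes to 0.03 and that of the 10 genes to 0.51, and the split of called genes went from 1447 higher and 1012 lower to 1022 higher and 1326 lower. UH vs UN and SN vs UN share the UN libraries, and SH vs SN and SH vs UH share the SH libraries. With opposite sign, UH vs UN and SH vs UH share the UH libraries, and SH vs SN and SN vs UN share the SN libraries. Low values in UH libraries alone would thus lower UH vs UN and raise SH vs UH, so these comparisons are not separate results.

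**Figure D1:**
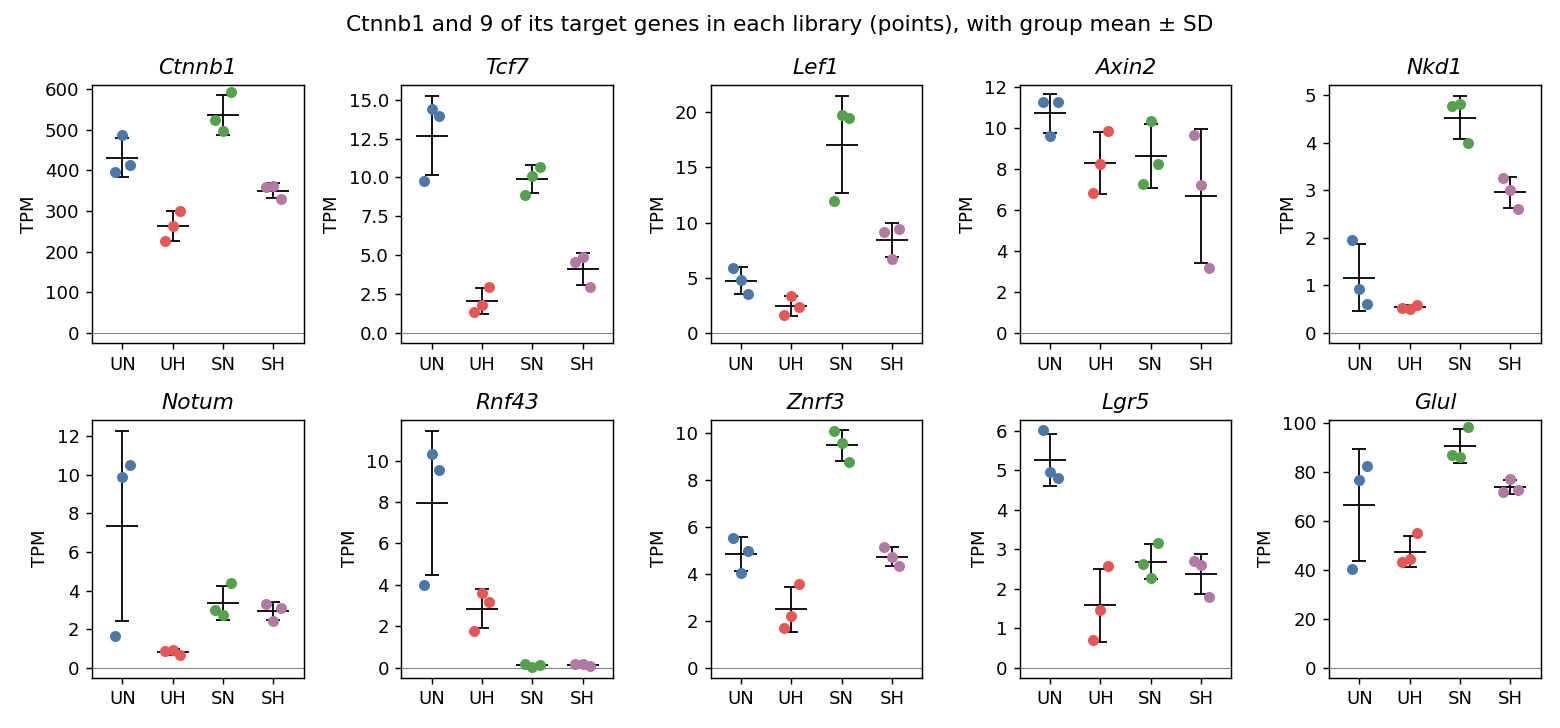
TPM (vertical axes, linear, a separate scale for each gene) of Ctnnb1 and 9 target genes in UN, UH, SN and SH cells. Points are libraries, and bars are the group mean ± SD (n = 3). Rnf43 lies between 0.0572 and 0.176 TPM in every sorted library, Lef1 and Nkd1 are higher in every sorted than in every unsorted library, and UN replicate 1 (left point) is the lowest UN library for Notum, Rnf43, Tcf7, Glul and Ctnnb1.

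Ctnnb1 (ENSMUSG00000006932, chromosome 9, 120929216 to 120960507, plus strand, mm10) was by far the most abundant of the 10. In UN replicates 1 to 3 it was at 394, 485 and 412 TPM, and in UH replicates at 225, 262 and 299 TPM. In SN replicates it was at 522, 496 and 591 TPM, and in SH replicates at 358, 362 and 328 TPM. The means followed the order SN, UN, SH and UH, and no library of any group overlapped the libraries of the next. Among all genes it ranked 253rd from the highest in SN cells and 518th in UH cells. The mutant β-catenin came from a vector and is described as human, and it is not known here whether its transcripts are part of these totals. Ctnnb1 was called in no comparison. Its log2 fold change was −0.72 (SE 0.12, adjusted p = 0.000477, limma) in UH vs UN and −0.62 (SE 0.12, adjusted p = 0.00173, limma) in SH vs SN, with a ratio of mean TPM of 0.609 and 0.651. Hypoxic libraries thus had lower levels than normoxic ones in both pairs, by less than the fold threshold. Median-of-ratios scaling reduced the value in UH vs UN to −0.36 (adjusted p = 0.0102, limma). In SN vs UN it was 0.32 (SE 0.12, adjusted p = 0.0632, limma), and in SH vs UH 0.42 (SE 0.12, adjusted p = 0.0156, limma), the latter reduced to 0.20 (adjusted p = 0.126, limma) by the scaling, which raised the former to 0.44 (adjusted p = 0.00428, limma). With UN replicate 1 left out the values were −0.78 in UH vs UN and 0.26 in SN vs UN. For single values such as these, an exact permutation test (two-sided) of 3 against 3 libraries cannot go below p = 0.1.

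Tcf7 and Lef1 encode members of the TCF/LEF family, the DNA-binding partners of β-catenin, and both are also its targets. Tcf7 (ENSMUSG00000000782, chromosome 11, 52252371 to 52283014, minus strand) was at 9.76, 14.4 and 13.9 TPM in UN replicates 1 to 3 and at 1.37, 1.83 and 2.98 TPM in UH replicates. It was at 8.88, 10.1 and 10.7 TPM in SN replicates and at 4.58, 4.87 and 2.93 TPM in SH replicates. Every hypoxic library was below every normoxic one, while UN overlapped SN and UH overlapped SH. Tcf7 fell in hypoxia in unsorted cells, with a log2 fold change of −2.18 (SE 0.23, adjusted p = 1.33e-05, limma), and in sorted cells, with −1.10 (SE 0.23, adjusted p = 0.00229, limma). Without UN replicate 1 the first was −2.34, and without SH replicate 3 the second was −0.92, under the fold threshold. In SN vs UN it was −0.32 (adjusted p = 0.322, limma), and −0.48 without UN replicate 1. In SH vs UH it was 0.76 (SE 0.23, adjusted p = 0.0191, limma).

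Lef1 (ENSMUSG00000027985, chromosome 3, 131110471 to 131224356, plus strand) had another pattern. It was at 5.90, 4.85 and 3.51 TPM in UN replicates 1 to 3 and at 1.59, 3.39 and 2.33 TPM in UH replicates. It was at 11.96, 19.8 and 19.5 TPM in SN replicates and at 9.16, 6.66 and 9.45 TPM in SH replicates. All sorted libraries were above all unsorted ones, and within each kind of cell the normoxic libraries were above the hypoxic ones. Lef1 was higher in sorted cells by a log2 fold change of 1.64 in normoxia (SE 0.25, adjusted p = 0.00045, limma) and 1.48 in hypoxia (SE 0.25, adjusted p = 0.000698, limma). Without UN replicate 1 the first was 1.78. In hypoxia the log2 fold change was −0.76 (adjusted p = 0.0286, limma) in unsorted and −0.92 (adjusted p = 0.0123, limma) in sorted cells, under the fold threshold in both, and without UN replicate 1 the first was −0.61 (adjusted p = 0.0897, limma). Median-of-ratios scaling gave −0.49 (adjusted p = 0.151, limma) for it. The second passed that threshold without SN replicate 1 (−1.14) and without SH replicate 3 (−1.001). For Lef1 the ratio of mean TPM was 0.512 for UH to UN and 0.494 for SH to SN. Since TPM is per length, the balance of the pair could be read within each library. The ratio of Lef1 to Tcf7 was 0.605, 0.337 and 0.252 in UN replicates and 1.16, 1.85 and 0.782 in UH replicates. It was 1.35, 1.95 and 1.82 in SN replicates and 2.00, 1.37 and 3.22 in SH replicates. Tcf7 was thus the more abundant of the pair in all UN libraries and Lef1 in all sorted ones, and no other group overlapped UN.

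Among the feedback inhibitors, Axin2 encodes a scaffold of the destruction complex and is the target most often used as a readout of β-catenin. Axin2 (ENSMUSG00000000142, chromosome 11, 108920349 to 108950783, plus strand) was at 11.3, 9.63 and 11.3 TPM in UN, 6.84, 8.28 and 9.87 TPM in UH, 7.30, 10.4 and 8.27 TPM in SN and 9.68, 7.25 and 3.18 TPM in SH replicates 1 to 3. The libraries of all 4 groups overlapped, with SH replicate 3 the lowest. Its log2 fold changes lay between −0.42 and −0.29 in the 4 comparisons, and the lowest adjusted p was 0.277 (limma, SH vs SN). Leaving out UN replicate 1 gave −0.31 in UH vs UN and −0.26 in SN vs UN. Over the 17 alternative fits the value in UH vs UN reached −0.02, with median-of-ratios scaling, and that in SH vs SN lay between −0.70 and −0.03. The value in SH vs UH lay between −0.65 and 0.022, the latter without SH replicate 3, so its direction depended on the fit. None of the 4 comparisons had an adjusted p under 0.05 in any fit (limma), so no difference of Axin2 is established. The SE of 0.29 was exceeded only by that of Notum, so a moderate difference could have been missed.

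Nkd1 encodes naked cuticle 1, which binds Dishevelled and dampens Wnt signaling. Nkd1 (ENSMUSG00000031661, chromosome 8, 88521354 to 88594884, plus strand) was at 1.96, 0.924 and 0.614 TPM in UN replicates and at 0.515, 0.512 and 0.586 TPM in UH replicates. It was at 4.77, 4.83 and 4.002 TPM in SN replicates and at 3.25, 3.01 and 2.61 TPM in SH replicates. The order was SN, SH, UN and UH with no overlap between neighbours, and UN replicate 1 was the highest of its group. Nkd1 was higher in sorted cells by a log2 fold change of 1.40 in normoxia (SE 0.20, adjusted p = 0.00026, limma) and 1.36 in hypoxia (SE 0.20, adjusted p = 0.000228, limma), and without UN replicate 1 the first was 1.65. In hypoxia its log2 fold changes of −0.45 in UH vs UN (adjusted p = 0.0875, limma) and −0.48 in SH vs SN (adjusted p = 0.0735, limma) did not pass the test, and without UN replicate 1 they were −0.20 (adjusted p = 0.281, limma) and −0.48 (adjusted p = 0.0101, limma).

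Notum encodes a secreted carboxylesterase that removes the lipid Wnt ligands need to bind their receptors. Notum (ENSMUSG00000042988, chromosome 11, 120653788 to 120661175, minus strand) was at 1.66, 9.88 and 10.5 TPM in UN replicates 1 to 3 and at 0.890, 0.919 and 0.656 TPM in UH replicates. It was at 2.97, 2.73 and 4.39 TPM in SN replicates and at 3.31, 2.41 and 3.11 TPM in SH replicates. All UH libraries were below all others, and UN replicate 1 was far below the other UN libraries and below every sorted one. In hypoxia Notum fell in unsorted cells (log2 fold change −1.93, SE 0.44, adjusted p = 0.00353, limma), with −2.62 (adjusted p = 1.77e-06, limma) without UN replicate 1. In SN vs UN the value was −0.69 (adjusted p = 0.266, limma), and without UN replicate 1 it was −1.38 (adjusted p = 0.000193, limma), which was called. In SH vs UH the log2 fold change of 1.11 had an adjusted p of 0.0623 (limma). That p fell to 0.00034 without UN replicate 1 and to 0.0468 without UN replicate 3, with no change in the fitted value, since UN libraries enter only the shared estimate of the spread. SN and SH libraries overlapped, with −0.13 (adjusted p = 0.853, limma).

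Rnf43 and Znrf3 encode related membrane E3 ubiquitin ligases that remove Frizzled receptors from the cell surface. Rnf43 (ENSMUSG00000034177, chromosome 11, 87662722 to 87735539, plus strand) was at 3.97, 10.3 and 9.54 TPM in UN replicates 1 to 3 and at 1.78, 3.599 and 3.18 TPM in UH replicates. In SN replicates it was at 0.175, 0.0572 and 0.113 TPM and in SH replicates at 0.176, 0.176 and 0.105 TPM. Every sorted library was near 0 and below every unsorted one, UH was below UN, and SN overlapped SH. Rnf43 was lower in sorted cells, with a log2 fold change of −2.92 in normoxia (SE 0.28, adjusted p = 1.50e-05, limma) and −1.71 in hypoxia (SE 0.28, adjusted p = 0.00054, limma). The first was −3.29 without UN replicate 1. The ratio of mean TPM was 0.0145 for SN to UN and 0.0533 for SH to UH, though a ratio against values this near to 0 is imprecise. In UH vs UN Rnf43 fell, at −1.16 (SE 0.28, adjusted p = 0.00535, limma). That call was lost, under the fold threshold, with median-of-ratios scaling (−0.88) and without UH replicate 1 (−0.94), UN replicate 2 (−0.94) or UN replicate 3 (−0.99), while without UN replicate 1 the value was −1.54.

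Znrf3 (ENSMUSG00000041961, chromosome 11, 5276324 to 5444847, minus strand) went the other way between sorted and unsorted cells. It was at 5.51, 4.04 and 4.97 TPM in UN replicates and at 1.70, 2.19 and 3.55 TPM in UH replicates. It was at 10.1, 9.58 and 8.77 TPM in SN replicates and at 5.14, 4.71 and 4.34 TPM in SH replicates. SN libraries were above all others, UH libraries were below all others, and UN overlapped SH. None of its differences reached the fold threshold on the log2(TPM + 1) scale, although all had an adjusted p under the limit in limma: −0.77 in UH vs UN (adjusted p = 0.00558), −0.87 in SH vs SN (adjusted p = 0.00329), 0.85 in SN vs UN (adjusted p = 0.00491) and 0.75 in SH vs UH (adjusted p = 0.00788). The ratios of mean TPM, which hold no pseudocount, were 0.513, 0.499, 1.96 and 1.90 in the same order. Without UN replicate 1 the values were −0.69 in UH vs UN and 0.93 in SN vs UN. In UN cells Rnf43 was on average at 7.94 ± 3.46 TPM and Znrf3 at 4.84 ± 0.740 TPM, whereas in SN cells the levels were 0.115 ± 0.0588 and 9.47 ± 0.655 TPM (SD, n = 3 in each).

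The genes around Rnf43 were looked at after its values were seen. Of 25 tested genes within 500 kb of it, 0 were called higher and 1 lower in SN vs UN (limma), against 3.20% and 7.57% of all tested genes. The gene was Mks1, which was at 2.55 TPM in UN, 1.95 TPM in UH and listed at 0 in SN and SH cells. The median log2 fold change of the 25 neighbours in SN vs UN was −0.27, and the nearest one beyond the end of Rnf43, Supt4a, was at 151 TPM in UN and 120.1 TPM in SN cells on average. That median was the value of Gm15892, at 0.333 TPM in UN cells on average. The 25 also included small RNA genes such as Rnu1a1 and Rnu3b1, both listed at 0 in SH cells. The median and the counts of neighbours rest partly on such genes. Of the 25, 0 were called higher and 4 lower in UH vs UN, against 5.46% and 11.8% of all tested genes. The counts were 0 and 2 in SH vs UH (7.65% and 5.35% of all tested genes) and 1 and 3 in SH vs SN (7.47% and 4.998%). Chromosome 11 held 5 of the 10 genes (Axin2, Notum, Rnf43, Znrf3 and Tcf7), and its 1551 tested genes had a median log2 fold change of −0.20 in UH vs UN and −0.07 in SN vs UN, close to the −0.19 and −0.06 of all genes.

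Lgr5 encodes a receptor for R-spondins, ligands that act against Rnf43 and Znrf3, and marks stem cells of several epithelia. Lgr5 (ENSMUSG00000020140, chromosome 10, 115450311 to 115587780, minus strand) was at 6.01, 4.95 and 4.79 TPM in UN replicates 1 to 3 and at 0.714, 1.46 and 2.56 TPM in UH replicates. It was at 2.62, 2.28 and 3.16 TPM in SN replicates and at 2.69, 2.61 and 1.78 TPM in SH replicates. UN libraries were above all others, and UH, SN and SH libraries overlapped. In unsorted cells Lgr5 fell in hypoxia (log2 fold change −1.34, SE 0.24, adjusted p = 0.000735, limma), with −1.25 without UN replicate 1. In SN vs UN the value of −0.76 (adjusted p = 0.0285, limma) did not reach the fold threshold and was −0.68 (adjusted p = 0.0714, limma) without UN replicate 1, and in SH vs SN it was −0.14 (adjusted p = 0.70, limma). Of the R-spondins and other LGR receptors, 4 of 6 were tested. Rspo3 fell in SH vs SN with a log2 fold change of −2.24 (adjusted p = 4.44e-07, limma), from 4.99 ± 0.322 to 0.269 ± 0.120 TPM (SD, n = 3 in each). In UH vs UN it fell with −1.04 (adjusted p = 7.11e-05, limma), which was −0.97 without UN replicate 1 and −0.78 with median-of-ratios scaling, both under the fold threshold. Lgr6 was higher in sorted cells, by 2.40 in SN vs UN (adjusted p = 2.48e-05, limma) and 1.76 in SH vs UH (adjusted p = 0.000172, limma), reaching 8.99 ± 0.296 TPM in SN cells (SD, n = 3). Lgr4, named after its values were seen, was called lower in UH vs UN and SN vs UN with overlapping libraries, and was at 5.55, 20.2 and 19.6 TPM in UN replicates 1 to 3.

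Glul encodes glutamine synthetase, which in the liver is made in the hepatocytes next to the central vein under control of β-catenin. Glul (ENSMUSG00000026473, chromosome 1, 153899944 to 153909723, plus strand) was at 40.5, 76.9 and 82.5 TPM in UN replicates 1 to 3 and at 43.4, 44.3 and 54.9 TPM in UH replicates. It was at 87.1, 86.3 and 98.6 TPM in SN replicates and at 71.9, 77.3 and 72.9 TPM in SH replicates. SN libraries were above all others, and UN replicate 1 lay below the UH libraries while the other UN libraries lay above them. Glul was called in none of the comparisons. The log2 fold change was −0.42 in UH vs UN (adjusted p = 0.131, limma), and −0.74 (adjusted p = 0.000339, limma) without UN replicate 1, but −0.07 (adjusted p = 0.805, limma) with median-of-ratios scaling. In SN vs UN it was 0.50 (adjusted p = 0.0945, limma), 0.18 without UN replicate 1, and 0.62 (adjusted p = 0.0222, limma) with the scaling. In SH vs SN it was −0.29 (adjusted p = 0.32, limma, and 0.0425 without UN replicate 1). In SH vs UH it was 0.64 (adjusted p = 0.0324, limma), and 0.42 (adjusted p = 0.0954, limma) with the scaling. Of 10 other pericentral genes 6 were tested. They ranged from Cyp2e1, the classical pericentral P450, at 0.0671 TPM, to Oat at 92.6 TPM in UN cells on average. The only one called was Tbx3, a transcription factor gene induced by β-catenin, which fell in UH vs UN (log2 fold change −1.44, adjusted p = 0.00355, limma, and −1.93 without UN replicate 1) and was higher in SH vs UH (1.23, adjusted p = 0.0106, limma). Of all tested genes, 11.8% were called lower in UH vs UN and 7.65% higher in SH vs UH. Tbx3 was at 14.6 ± 7.41 TPM in UN, 4.21 ± 0.548 in UH, 14.6 ± 3.54 in SN and 11.2 ± 1.17 in SH cells (SD, n = 3 in each). Among the periportal genes, 4 of 8 were tested. Gls2, the glutaminase of liver mitochondria, which breaks down what glutamine synthetase makes, rose from 1.63 ± 0.410 TPM in UN to 78.8 ± 2.82 TPM in UH and from 3.23 ± 0.143 TPM in SN to 36.2 ± 16.2 TPM in SH cells (n = 3 in each, SD). On the log2 scale the differences were 4.93 (adjusted p = 1.67e-07, limma) and 3.02 (adjusted p = 1.07e-05, limma). Ass1, of the urea cycle, was higher in sorted cells, by 1.496 in SN vs UN (adjusted p = 0.000561, limma) and 1.48 in SH vs UH (adjusted p = 0.000445, limma).

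**Figure D2:**
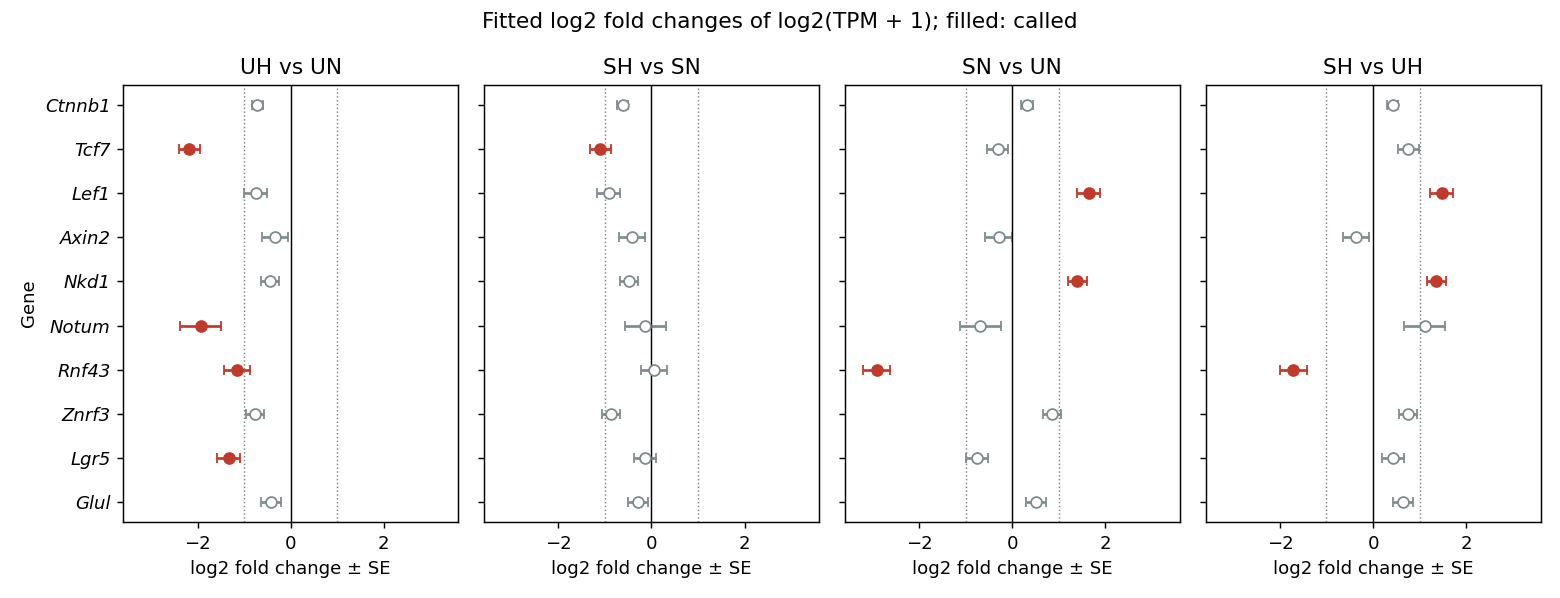
Fitted log2 fold changes (horizontal axes, difference of log2(TPM + 1), ± SE from limma) of the 10 genes (vertical axis) in UH vs UN, SH vs SN, SN vs UN and SH vs UH. Filled points were called and dotted lines mark the fold threshold. All 10 points lie below 0 in UH vs UN, from −2.18 for Tcf7 to −0.34 for Axin2, and the filled points in SH vs UH are those of Lef1, Nkd1 and Rnf43, as they are between SN and UN cells.

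Whether sorted cells answered hypoxia differently from unsorted ones was tested as the difference of both log2 fold changes, SH vs SN minus UH vs UN. It was called more positive for 2 of the 10 genes, against 8.08% of all tested genes, and less positive for 0, against 2.18% (at an unadjusted p under 0.05, 4 more and 0 less positive, limma, against 28.7% and 7.60%). Lgr5 had a difference of 1.20 (SE 0.34, adjusted p = 0.0272, limma) and Tcf7 one of 1.07 (SE 0.32, adjusted p = 0.0341, limma). Both were thus less lowered by hypoxia in sorted than in unsorted cells. Notum and Rnf43 had differences of 1.80 (adjusted p = 0.0595, limma) and 1.21 (adjusted p = 0.0508, limma), which did not pass, and Rnf43 was near 0 in sorted cells before hypoxia. Without UN replicate 1 all 4 were called, at 1.11 for Lgr5, 1.24 for Tcf7, 2.49 for Notum and 1.58 for Rnf43, while the shares of 8.08% and 2.18% are those with all 12 libraries. The values of the other 6 genes lay between −0.16 and 0.13, with adjusted p of at least 0.695 (limma). The value of Glul was 0.45 without UN replicate 1 (adjusted p = 0.0441, limma), under the fold threshold. The calls for Lgr5 and Tcf7 were not firm. Median-of-ratios scaling, which moved the median of all genes from 0.25 to 0.02, took them to 0.97 and 0.81, under the fold threshold. The same scaling changed the split of all called genes from 1527 more and 412 less positive to 903 and 783. Of 17 alternative fits Lgr5 was called in 8 and Tcf7 in 6. Over all 17 the adjusted p lay between 0.00604 and 0.0664 for Lgr5 and between 0.0128 and 0.0833 for Tcf7 (limma). For Lgr5 the call was lost without SH replicate 1 (1.12), SH replicate 2 (1.14), SN replicate 1 (1.19), SN replicate 2 (1.12), UH replicate 1 (0.93), UH replicate 2 (1.20) or UN replicate 2 (1.23). For Tcf7 it was lost without SH replicate 1 (1.00), SH replicate 2 (0.96), SN replicate 1 (1.01), SN replicate 2 (1.09), SN replicate 3 (1.13), UH replicate 1 (0.91), UH replicate 2 (1.03), UN replicate 2 (0.98) or UN replicate 3 (1.00).

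Other genes of the pathway were described from 7 lists holding 88 genes, 75 of them tested. In limma 4 of them were called higher and 16 lower in hypoxia in unsorted cells, and 4 and 5 in sorted cells. The shares of all tested genes were 5.46% and 11.8%, and 7.47% and 4.998%. Sorted cells had 3 higher and 12 lower than unsorted cells in normoxia, and 4 and 8 in hypoxia, where the shares of all tested genes were 3.20% and 7.57%, and 7.65% and 5.35%. Of 18 genes of the destruction complex and of β-catenin stability, 0 were called higher in any of the 4 comparisons and 1 was called lower both in UH vs UN and SN vs UN, though without UN replicate 1 there was 1 called higher in the latter. The gene called lower was Amer1, whose product carries APC to the membrane, at 10.3 ± 2.64 TPM in UN, 3.65 ± 0.834 in UH, 4.11 ± 0.292 in SN and 2.01 ± 0.262 in SH cells (SD, n = 3 in each). Its log2 fold changes were −1.26 (adjusted p = 0.000284, limma) in UH vs UN and −1.11 (adjusted p = 0.00117, limma) in SN vs UN. Both fell under the fold threshold with median-of-ratios scaling (−0.97 and −0.998), and the second also without UN replicate 3 (−0.97).

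Of 20 nuclear partners of β-catenin, 0 were called higher and 3 lower in UH vs UN, where 5.46% and 11.8% of all tested genes were. Tle2, a Groucho corepressor, fell (−1.94, adjusted p = 1.34e-05, limma), as did Ctnnbip1, which encodes an inhibitor of the binding of β-catenin to TCF (−1.40, adjusted p = 1.15e-05, limma), and Smarca4, a chromatin remodeler (−1.08, adjusted p = 8.70e-05, limma). Smarca4 was under the fold threshold with median-of-ratios scaling (−0.73) and without UH replicate 1 (−0.90). The counts for SN vs UN were 3 lower and 0 higher, against 7.57% and 3.20%. Those lower included Tcf7l1, the TCF that acts mostly as a repressor (−2.26, adjusted p = 9.25e-05, limma), and Tle1 (−1.65, adjusted p = 0.000534, limma). Tcf7l1 was at 21.9 ± 4.92 TPM in UN, 37.2 ± 12.7 in UH, 3.76 ± 0.878 in SN and 14.3 ± 3.47 in SH cells (SD, n = 3 in each). In SH vs SN it rose by 1.68 (adjusted p = 0.00055, limma), the opposite of Tcf7 in the same comparison.

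Of 8 junction partners, 3 were called lower and 1 higher in UH vs UN, where 11.8% and 5.46% of all tested genes were. For SN vs UN the counts were 3 lower and 0 higher, against 7.57% and 3.20%, and 3 and 1 without UN replicate 1. Cdh3, which encodes P-cadherin, was at 38.6 ± 14.8 TPM in UN, 9.83 ± 1.48 in UH, 0.351 ± 0.0706 in SN and 1.15 ± 0.313 in SH cells (SD, n = 3 in each). Its log2 fold changes were −1.80 in UH vs UN (adjusted p = 0.000163, limma, and −2.16 without UN replicate 1), −4.79 in SN vs UN (adjusted p = 1.54e-07, limma, and −5.15 without it) and −2.33 in SH vs UH (adjusted p = 3.34e-05, limma). Cdh1, which encodes E-cadherin, fell in UH vs UN (−1.98, adjusted p = 8.74e-06, limma) and was lower in SN vs UN (−2.68, adjusted p = 1.51e-06, limma). Ctnna2, an α-catenin gene, fell in UH vs UN (−2.36, adjusted p = 3.56e-05, limma) and was lower in SN vs UN (−1.30, adjusted p = 0.00394, limma). Cdh2, which encodes N-cadherin, rose in UH vs UN by 1.45 (adjusted p = 0.000183, limma). It was above Cdh3 in every group on average, at 65.4 TPM in UN, 178 in UH, 121 in SN and 162 in SH cells.

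Of 18 other reported targets, 15 were tested, with 2 called higher and 6 lower in UH vs UN (5.46% and 11.8% of all tested genes) and, for SH vs SN, 2 and 3 (7.47% and 4.998%). Ccnd1, which encodes cyclin D1, was at 186, 152 and 153 TPM in UN replicates 1 to 3 and at 164 ± 18.9 TPM on average, compared with 32.9 ± 3.09 in UH, 468 ± 102 in SN and 115 ± 18.3 in SH cells (SD, n = 3 in each). No library overlapped between the groups compared, and all 4 log2 fold changes were called: −2.28 in UH vs UN (adjusted p = 1.03e-06, limma), −1.998 in SH vs SN (adjusted p = 4.52e-06, limma), 1.49 in SN vs UN (adjusted p = 4.72e-05, limma) and 1.77 in SH vs UH (adjusted p = 8.83e-06, limma). Ascl2, a transcription factor gene of intestinal stem cells, rose in hypoxia, from 0.0972 ± 0.0983 TPM in UN to 9.66 ± 0.438 TPM in UH cells, and from 0.108 ± 0.0231 TPM in SN to 1.68 ± 0.527 TPM in SH cells (n = 3 in each, SD), with log2 fold changes of 3.28 (adjusted p = 4.16e-08, limma) and 1.25 (adjusted p = 6.60e-05, limma). Apcdd1 and Nkd2, both inhibitors of Wnt signaling, fell in UH vs UN (−1.80 and −1.53, adjusted p = 4.17e-05 and 5.92e-05, limma). Nkd2 was also lower in SN vs UN (−1.89, adjusted p = 2.47e-05, limma, and −1.62 without UN replicate 1), whereas its relative Nkd1 was higher. Larger differences in SN vs UN were those of Ephb3 (−2.31, adjusted p = 8.02e-07, limma) and Ephb2 (−1.90, adjusted p = 0.00109, limma), receptor genes that were lower in sorted cells in normoxia. In SH vs UH neither was called, with −0.77 for Ephb3 (adjusted p = 0.00203, limma) and 0.14 for Ephb2 (adjusted p = 0.76, limma). Ephb2 also rose in SH vs SN (1.76, adjusted p = 0.00141, limma).

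The genes whose pattern was most like that of each of the 10 were found by Pearson's r of log2(TPM + 1) over the 12 libraries, among 13557 genes with a mean of at least 1 TPM. The libraries fall into 4 groups, so r mostly reflects the group means and is given as a description. Tcf7 was most like Wdr82 (0.990), Prkaca (0.990) and Hoxa10 (0.985). For Rnf43 the nearest were B4galnt4 (0.994), En1 (0.994) and Slc22a17 (0.993), and for Ctnnb1 they were Cnksr3 (0.981), Fam49a (0.978) and Nfya (0.971). Lef1 was most like Nabp2 (0.981), Ap2m1 (0.975) and Ankrd13b (0.974), and Nkd1 most like Zfp219, Git1 and Gdf15 (0.984, 0.984 and 0.974). Znrf3 had B130055M24Rik (0.990), E2f8 (0.988) and Pias2 (0.983), and Lgr5 had Gbp7 (0.968), Snap23 (0.957) and Kalrn (0.951). Those of Notum are not given here. Glul was nearest to Srfbp1 (0.965), Fam192a (0.958) and Serpine2 (0.952). The lowest values were those of Axin2, with Zfp36l2 (0.902), Tmem55b (0.883) and Cpne1 (0.879). Among the 10 genes themselves, r was highest between Nkd1 and Lef1 (0.933) and lowest between Nkd1 and Rnf43 (−0.817). With Ctnnb1 it was 0.900 for Znrf3, 0.896 for Tcf7, 0.265 for Axin2 and −0.176 for Rnf43.

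Promoter sequences from RefSeq (GRCm38.p6, 250 bases before to 50 after each annotated start) were matched for 7 of the 10 genes, in 13 windows. Lgr5, Notum and Znrf3 had no entry. The TCF/LEF core written as CTTTGAA or CTTTGAT, searched on both strands, occurred in 0 of the 13 windows and in 8.65% of all 32851 promoters. The looser form CTTTGNN, which includes both but lets any bases follow CTTTG, occurred in 4 windows, all of Lef1, and in 53.7% of all promoters. A match is a description and not a binding site, and many binding sites of TCF/LEF factors lie outside such windows. The 250 bases before a start are shown for Lef1, which was higher in sorted cells, and for Axin2, which was called in no comparison, both on the plus strand and wholly before the annotated gene. Capitals mark CTTTGNN. Lef1 had a further start whose stretch (chr3:131110047-131110296) overlaps the one shown and held 1 match and 11 CG pairs. The Lef1 stretch shown (chr3:131110073-131110322) held 2 matches and had 66.4% G or C with 14 CG pairs, and the Axin2 stretch (chr11:108920099-108920348) held 0 matches and had 69.2% G or C with 24 CG pairs, compared with medians of 52.4% and 6 over all promoters.
Lef1: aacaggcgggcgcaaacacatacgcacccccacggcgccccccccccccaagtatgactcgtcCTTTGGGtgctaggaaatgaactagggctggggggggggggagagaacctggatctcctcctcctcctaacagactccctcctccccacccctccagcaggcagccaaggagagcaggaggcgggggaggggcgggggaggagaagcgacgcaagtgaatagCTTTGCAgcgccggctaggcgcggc
Axin2: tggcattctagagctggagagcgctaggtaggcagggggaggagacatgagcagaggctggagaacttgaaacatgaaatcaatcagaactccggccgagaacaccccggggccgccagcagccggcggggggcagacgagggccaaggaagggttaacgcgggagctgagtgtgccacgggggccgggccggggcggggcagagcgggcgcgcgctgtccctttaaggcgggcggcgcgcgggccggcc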

How the data were processed

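Libraries were made from mRNA with a stranded kit and sequenced in pairs on an AVITI instrument. The authors ran nf-core/rnaseq 3.12.0, and the deposited table holds TPM per gene from its Salmon step, on build mm10 by the submitters' processing notes. The annotation release was not given in the sources used here. TPM keeps no depth, so no counting interval could be given. Values were taken as log2(TPM + 1). Genes were fitted when their TPM averaged 0.1 or more over the 12 libraries, in limma 3.58.1 (R 4.3.3) with 4 group means and a trend on mean expression, and p-values were adjusted by Benjamini-Hochberg over all tested genes of a contrast. Genes were called at an adjusted p under 0.05 and a fold above 2. The fit was first tested on simulated data with known changes. The members and lists were chosen with earlier results of these data known. From each list up to 4 called genes per contrast whose libraries did not overlap were eligible to be named, in order of size, though not all are named, and for likeness the 3 genes with the highest r. Alternatives were a pseudocount of 0.1, no filter, a minimum mean TPM of 1, median-of-ratios scaling, a replicate block, the motif CTTTGNN and leaving out each library. Gene positions are from GENCODE M21 (GRCm38, the same assembly as mm10), which held 98.8% of the gene IDs. Figures were drawn with matplotlib 3.10.9 in Python 3.11.15.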

Additional observations from a re-analysis of the deposited data

Results flagged for a closer look

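The fitted response to hypoxia differed between sorted and unsorted cells for Lgr5, by 1.20 on the log2 scale, and for Tcf7, by 1.07 (adjusted p = 0.0272 and 0.0341, limma). Both fell in unsorted cells. In sorted cells Tcf7 fell less, and for Lgr5 the value of −0.14 did not pass the test. Without UN replicate 1 the differences were 1.11 and 1.24, and with median-of-ratios scaling 0.97 and 0.81, which were not called. Of 17 alternative fits, 8 called Lgr5 and 6 called Tcf7.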

How the results depend on the processing

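Of 850 log2 fold changes of the 10 genes recomputed under 17 alternatives, 794 kept their direction and their side of the threshold, 25 were no longer called, 13 became called and 18 changed sign. Nkd1 and Lef1 in both comparisons of sorted with unsorted cells, Rnf43 in the same comparisons, and Lgr5, Notum and Tcf7 in UH vs UN were called in all 17. With a pseudocount of 0.1, 5 genes were called in SH vs UH, 4 of them higher. In UH vs UN 3 genes were called with median-of-ratios scaling. The call of Rnf43 there was also lost without UH replicate 1, UN replicate 2 or UN replicate 3. For the difference of the responses, 4 genes were called with a minimum mean TPM of 1, 0 with median-of-ratios scaling and 0 with no filter. Leaving out a library in turn gave 0 to 4 genes for this difference, 1 to 2 in SH vs SN (2 without SN replicate 1), 1 to 2 called lower in SN vs UN and 3 to 4 in SH vs UH, of which 2 to 3 were higher. None of the values that changed sign was called in any of these fits. Axin2 in SH vs UH ranged from −0.65 (without SH replicate 1) to 0.022 (without SH replicate 3), and Notum in SH vs SN from −0.24 (without SN replicate 2) to 0.0275 (without SN replicate 3). All others were differences of the responses, near 0 in 6 genes. Without a library these ranged from −0.002723 to 0.20 for Ctnnb1, −0.36 to 0.31 for Axin2, −0.29 to 0.15 for Nkd1, −0.26 to 0.113 for Znrf3, −0.39 to 0.02877 for Lef1 and −0.0502 to 0.45 for Glul. Scaling gave −0.24 for Ctnnb1 and −0.2044 for Glul, and a pseudocount of 0.1 gave 0.25 for Nkd1. The direction of these 6 differences thus depended on the fit.

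The labels number the replicates alike in each group, but deviations from the group means of equally numbered libraries had r between −0.116 and 0.141, so the numbers were not taken as pairs. With the replicate block the counts were 4, 1, 3 and 3 genes in UH vs UN, SH vs SN, SN vs UN and SH vs UH, as without it, and 3 for the difference of the responses, where Rnf43 was added with an adjusted p of 0.0434 (limma). The block changed no other call of the 10 genes.

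TPM cannot show how many reads lie behind a value, which bears most on Rnf43 in sorted cells and on other levels near 0. Whether transcripts of the vector are part of the Ctnnb1 values is not known here, and RNA levels do not give the amount, the location or the activity of the β-catenin protein. Sorting, expansion in culture and earlier hypoxia came together in SN and SH cells, so their parts in any difference from unsorted cells cannot be told apart. Groups had 3 libraries each.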
